A study of Homo sapiens with 6 samples.

Results

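The genes of the core spliceosome proteins, the SR proteins and the hnRNPs were followed in PC-3, a human prostate cancer cell line that grows without androgen, after exposure to menthol, the cooling compound of mint. Genes were taken by symbol: SRSF with a number, HNRNP with letters, SNRP with letters or numbers, SF3A or SF3B with a number, LSM with a number and PRPF with a number, each from probesets to which the platform annotation gives 1 gene. This gave 77 of the 18404 genes measured, namely 12 SRSF, 20 HNRNP, 12 SNRP, 9 SF3A or SF3B, 13 LSM and 11 PRPF genes, of which 2 are annotated as pseudogenes. The menthol group (3 arrays) received menthol in ethanol and the vehicle group (3 arrays) ethanol alone, at 0.1%, in DMEM with 10% fetal bovine serum. Dose and exposure time are not stated in the labels. Nothing in them says whether the 3 replicates of a group came from separate cultures, so the p-values reflect the spread among these arrays alone, and that spread may be technical.

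Introns are removed by the spliceosome, which is built on each transcript from small nuclear ribonucleoproteins (snRNPs), particles of a small RNA and proteins. A ring of Sm proteins holds the U1, U2, U4 and U5 RNAs, and a ring of LSM proteins holds U6. U1 marks the start of the intron, U2 with SF3A and SF3B marks the branch site, and the PRPF proteins are scaffolds and remodelling factors of the later complexes. SR proteins bind exons and mostly promote their inclusion, while hnRNPs coat the nascent transcript and often oppose it. Genes of this machinery are expressed in all dividing cells, and changes in their levels can alter exon choice.

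Values were intensities summarised by RMA, taken to log2, and a change is menthol minus vehicle on the log2 scale with its standard error (SE, n = 3 per group). Genes were tested with limma over all 18404 genes, and a gene was said to rise or fall when its Benjamini-Hochberg adjusted p was under 0.05. The median standard deviation between replicates of the 77 genes was 0.08 in the menthol group and 0.05 in the vehicle group. Of 6 markers of epithelium and PC-3 cells, all bright, 5 rose and 1, VIM, fell, with a summed log2 level of 64.3 to 64.6 in menthol and 60.8 to 61.4 in vehicle arrays. Of 3 leukocyte and 2 androgen-axis markers 0 passed, and PTPRC lay at 2.69 log2 units in menthol and 2.60 in vehicle cells. Of 3 endothelial markers PECAM1 rose, and of 3 fibroblast markers DCN rose, at 2.66 in menthol and 2.30 in vehicle cells. The part of these genes in the results was not tested. The number of arrays limits the precision.

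The promoters of 4 genes are shown first because they carry the largest fall, the falls of both U1 snRNP proteins of the group and the largest rise. Each is the 250 bases before the annotated start, from RefSeq on build GRCh38.p14, with capitals for a CCAAT box (CCAAT), a GC box (GGGCGG), an ETS core (CCGGAAG), an E-box (CACGTG) or a TATA box (TATAAA), searched on both strands. SRSF11 (chr1:70205446-70205695, plus strand) holds none of these letters. SNRPA (chr19:40750953-40751202, plus strand) holds a CCAAT box that begins 83 bases before the start and a GC box at 56 bases. SNRPC (chr6:34757255-34757504, plus strand) holds a GC box at 101 bases, a TATA box at 237 bases and overlapping ETS cores on both strands at 211 and 214 bases. SRSF8 (chr11:95066627-95066876, plus strand) holds a CCAAT box at 33 bases and has a GC content of 33.6%, against 64.8% in SRSF11.
SRSF11 promoter: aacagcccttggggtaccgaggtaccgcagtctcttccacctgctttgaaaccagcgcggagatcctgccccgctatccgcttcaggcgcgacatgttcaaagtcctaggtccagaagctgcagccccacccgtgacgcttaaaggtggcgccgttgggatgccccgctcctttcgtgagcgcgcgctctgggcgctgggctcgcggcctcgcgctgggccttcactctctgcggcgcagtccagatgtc
SNRPA promoter: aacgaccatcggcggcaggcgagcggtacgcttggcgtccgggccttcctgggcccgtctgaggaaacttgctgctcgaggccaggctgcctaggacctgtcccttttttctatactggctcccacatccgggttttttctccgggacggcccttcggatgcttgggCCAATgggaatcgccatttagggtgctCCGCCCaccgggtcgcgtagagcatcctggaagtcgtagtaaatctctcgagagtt
SNRPC promoter: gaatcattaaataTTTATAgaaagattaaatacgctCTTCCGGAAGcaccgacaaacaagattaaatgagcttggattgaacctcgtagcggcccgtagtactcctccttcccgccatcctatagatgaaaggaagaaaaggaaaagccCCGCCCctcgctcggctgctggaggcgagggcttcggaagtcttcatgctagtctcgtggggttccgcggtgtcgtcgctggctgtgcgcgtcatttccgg
SRSF8 promoter: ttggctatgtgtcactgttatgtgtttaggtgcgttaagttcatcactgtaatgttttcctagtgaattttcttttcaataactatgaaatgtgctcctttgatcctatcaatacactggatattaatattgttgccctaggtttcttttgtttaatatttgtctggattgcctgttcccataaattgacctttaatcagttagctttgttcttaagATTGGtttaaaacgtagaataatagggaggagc

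Promoters of 66 of the 77 genes were matched. An ETS core stood in 11 of 25 promoters of genes that fell (44%) and in 10 of 38 promoters of genes that did not pass (26.3%), against 8.78% of all 27305 promoters. A GC box stood in 17 of the 25 (68%) and 20 of the 38 (52.6%), against 42.2% of all. The CCAAT box stood in 12 of the 25 (48%) and 16 of the 38 (42.1%), against 33.0% of all, and the E-box in 2 and 3, against 6.46% of all. A TATA box stood in 1 of the 25 and 3 of the 38, against 11.2% of all. These shares were not tested, and the median GC content was 61.6% in the 66 promoters and 57.6% in all promoters, which bears on motifs rich in G and C. Of the 3 matched genes that rose, 1 held a CCAAT box, 1 an ETS core and 0 a GC box.

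Splicing factor genes were lower on balance in menthol-treated cells. Of the 77, 27 fell (35.1%), against 14.5% of all genes, and 4 rose (5.19%), against 14.6% of all genes, while 29.1% of all genes passed in either direction. The median change was -0.14, against 0.03 over all genes. The changes were small: 5 genes fell at least 1.5-fold, against 2.62% of all genes, and 0 rose that far, against 2.99%, the largest rise being 1.37-fold. In 41 genes every menthol array lay below every vehicle array, against 21.7% of all genes, and in 6 every menthol array lay above, against 23.5%. Without vehicle replicate 3, 14 of the 77 fell (18.2%), against 10.1% of all genes in that fit. Without vehicle replicate 1 or 2, 2 rose (2.60%), against 10.6% and 10.7% of all genes in those fits. Of the 27 genes that fell, 14 also passed with each array left out in turn, and of the 4 that rose, SRSF8 and PRPF18 did so. The like share over all genes is not given here, so whether these calls were steadier than those of other genes cannot be said.

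Most of these genes are bright on the array, and 57 of the 77 lay in the brightest quartile. In that quartile 44.1% of all genes passed, 26.9% lower and 17.2% higher, against 21 of the 57 (36.8%) and 3 of the 57 (5.26%). Above the median intensity 24 of 69 members fell and 4 rose, against 23.6% and 17.3% of all genes, of which 40.9% passed. The median change in the brightest quartile was -0.13 for the 57 genes and -0.05 for all genes. In that quartile the groups did not overlap in 59.6% of the 57 genes and in 66.5% of all genes. Every menthol array lay below every vehicle array in 29 of the 57, against 1831 of all 4601 genes. In 5 of the 57 every menthol array lay above, against 1230 of the 4601. The direction of the imbalance was thus shared by bright genes at large, while the share that rose was smaller among the splicing genes. Of 6 genes of proliferation 6 fell, against 26.9% of all genes in the brightest quartile, where these genes lie. They were listed as genes that move with the treatment, so this count is no separate result. PLK1, a mitotic kinase, fell by 1.01 ± 0.06 and MKI67 by 0.33 ± 0.08. The summed log2 level of the 6 genes ranged from 54.35 to 55.44 in menthol and from 59.01 to 59.58 in vehicle arrays. Their part in the fall of the splicing genes was not tested.

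**Figure D1:**
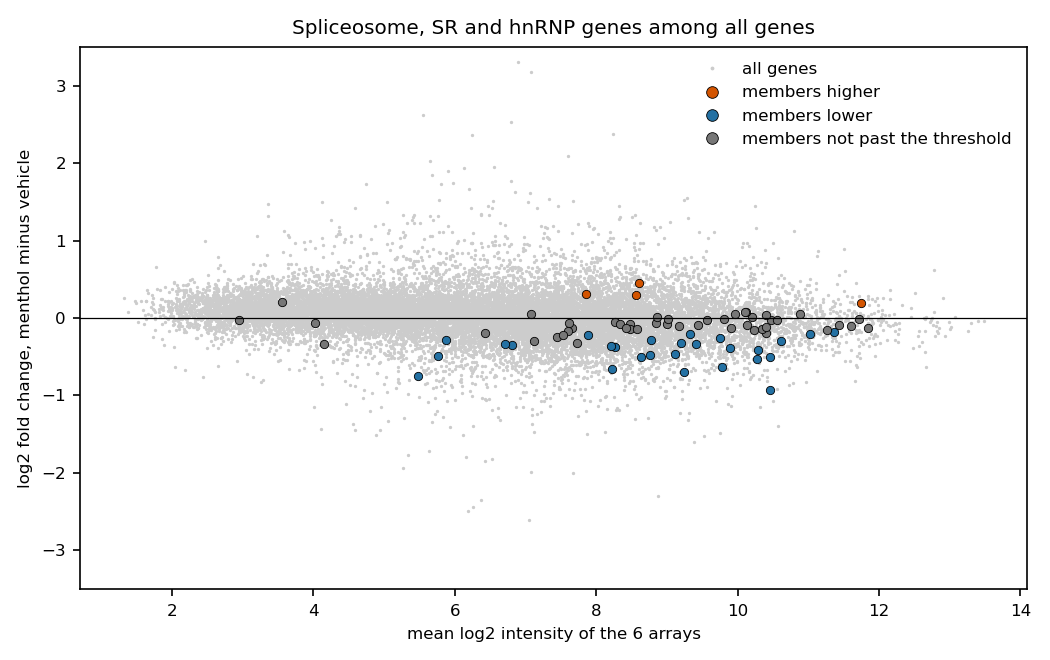
Log2 fold change of menthol over vehicle against the mean log2 intensity of the 6 arrays, 1 point per gene. The 27 members that fell (blue) and 4 that rose (orange) sit mostly at the bright end among all 18404 genes (light grey).

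The SNRP genes held the highest share of falls of the 6 families, with 7 of 12 lower (58.3%) and 0 higher, against 14.5% and 14.6% of all genes, or 26.9% and 17.2% in the brightest quartile, where 9 of the 12 lie. In U1, both proteins measured here fell. SNRPA, which binds a stem-loop of U1 RNA, had 8.87, 8.84 and 8.97 log2 units in menthol cells, against 9.60, 9.49 and 9.67 in vehicle cells. The groups did not overlap, and SNRPA fell by 0.69 ± 0.07 (adjusted p = 0.000522), or 1.61-fold. SNRPC, which helps U1 hold the start of the intron, had 8.52, 8.50 and 8.53 in menthol cells, against 8.99, 8.95 and 9.05 in vehicle cells. The menthol arrays had an SD of 0.01 and lay below every vehicle array, and SNRPC fell by 0.48 ± 0.06 (adjusted p = 0.00105). SNRNP70, the remaining U1-specific protein, chosen from the list of other spliceosome genes after its values were seen, fell by 0.23 ± 0.06 (adjusted p = 0.0313).

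The U2 proteins moved unevenly. SNRPA1, a protein specific to U2, had 4.76, 5.31 and 5.26 in menthol cells, against 5.98, 5.59 and 6.01 in vehicle cells. It is dimmer and more scattered than the U1 genes, with a replicate SD of 0.30 in menthol and 0.23 in vehicle, and it fell by 0.75 ± 0.17 (adjusted p = 0.013). Its partner SNRPB2 stood at -0.09 ± 0.06 (adjusted p = 0.281), although every menthol array lay below every vehicle array.

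Of the 7 Sm ring genes, 6 of them in the brightest quartile, 4 fell (57.1%) and 0 rose, against 26.9% and 17.2% of all genes in that quartile. Leaving out vehicle replicate 2, vehicle replicate 3 or menthol replicate 2, 2 of the 7 fell, against 10.7%, 10.1% and 11.2% of all genes in those fits. SNRPE had 9.45, 9.36 and 9.58 in menthol cells, against 10.04, 10.07 and 10.18 in vehicle cells, without overlap, and fell by 0.63 ± 0.08 (adjusted p = 0.000996). A dimmer probeset of SNRPE, tested among the 19158 probesets with 1 gene, fell by 0.33 ± 0.07 (adjusted p = 0.0144). SNRPG had 8.45, 8.25 and 8.43 in menthol cells, against 8.55, 8.99 and 9.13 in vehicle cells. The groups of SNRPG came close at vehicle replicate 1, and its fall of 0.51 ± 0.15 (adjusted p = 0.0338) was lost on leaving out vehicle replicate 2, vehicle replicate 3 or any menthol array. Its dimmer probeset fell by 0.53 ± 0.12 (adjusted p = 0.0167).

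SNRPB, which encodes the Sm-B proteins, had 10.43, 10.51 and 10.46 in menthol cells, against 10.78, 10.72 and 10.79 in vehicle cells, and fell by 0.30 ± 0.06 (adjusted p = 0.00846). SNRPD2 fell by 0.36 ± 0.10 (adjusted p = 0.0308), a call that ended under quantile and cyclic loess normalization and without any 1 of the vehicle replicates or menthol replicate 2. SNRPF and SNRPD1 stood at -0.21 and -0.14 and SNRPD3 at 0.08, none past the threshold. Sm proteins form 1 ring in equal numbers, and their transcripts thus ranged from -0.63 to 0.08. The Sm and SNRP genes have many near-identical copies in the genome, so the signal of a probeset may come from more than 1 locus. Probe positions were not used here, and whether the brighter probesets kept for SNRPE and SNRPG measure the gene itself or a copy was not tested, so both values are uncertain.

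**Figure D2:**
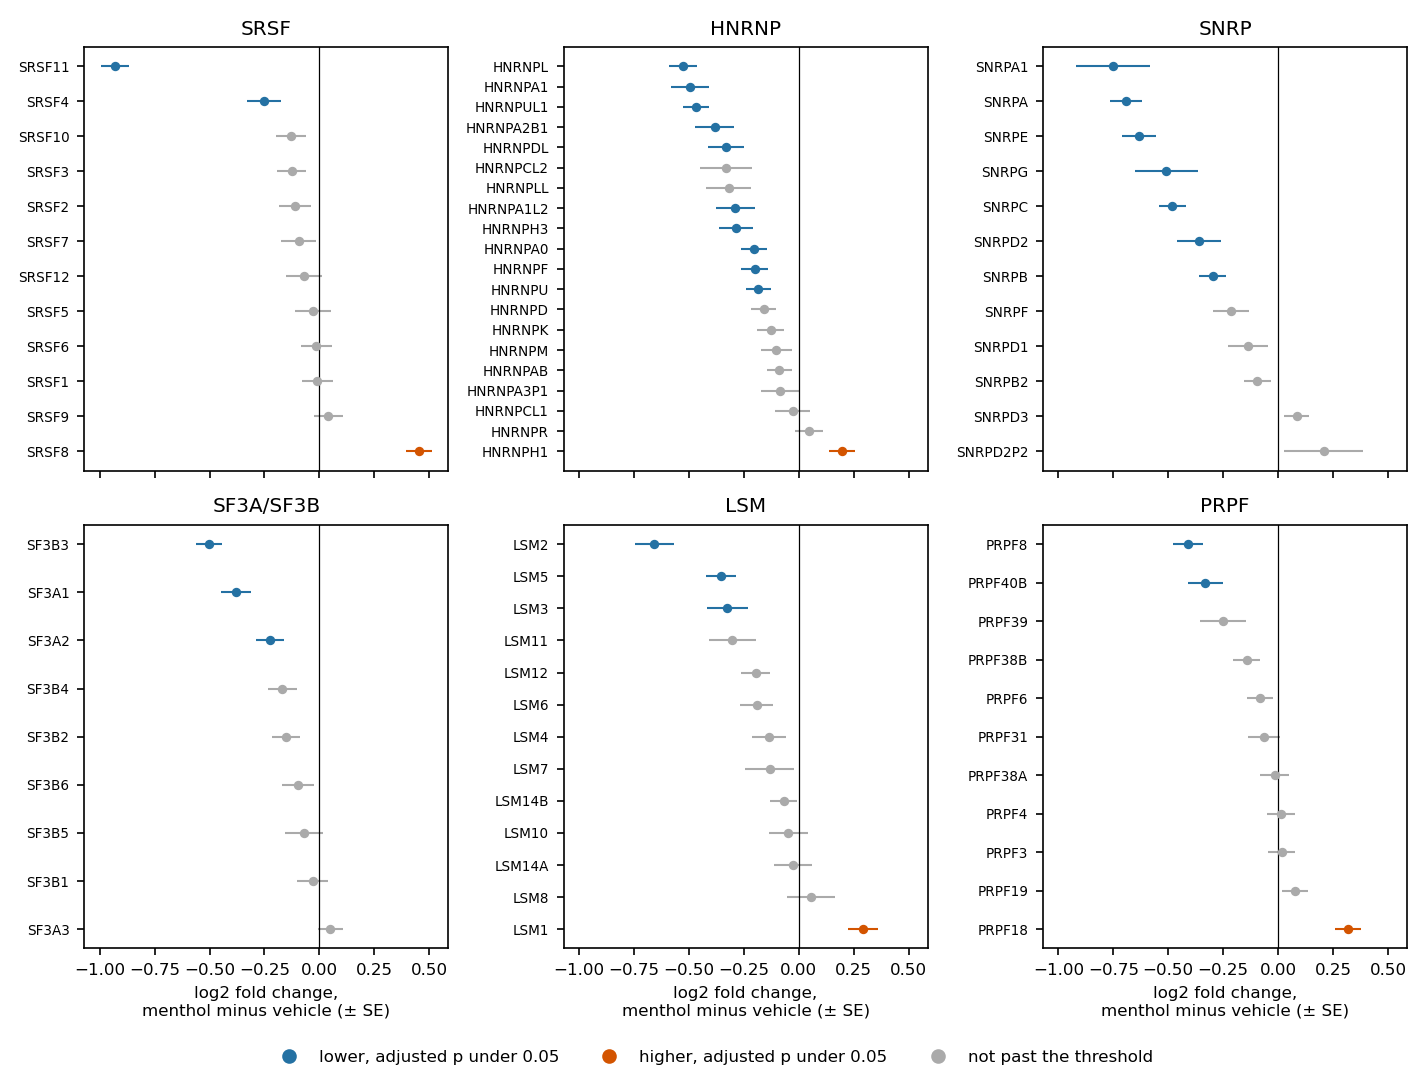
Log2 fold change of menthol over vehicle with its SE for each of the 77 genes, by family, coloured by the limma call. The SNRP and HNRNP panels hold most of the falls (7 of 12 and 10 of 20), and SRSF11 at -0.93 is the lowest point.

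In the branch-site complex of U2, 3 of 9 SF3A and SF3B genes were lower (33.3%) and 0 higher, against 14.5% and 14.6% of all genes. In the brightest quartile, where 7 of the 9 lie, 26.9% of all genes were lower, a share near that of the complex. SF3B3, a scaffold of SF3B, had 10.22, 10.16 and 10.24 in menthol cells, against 10.76, 10.69 and 10.68 in vehicle cells, and fell by 0.50 ± 0.06 (adjusted p = 0.000935). SF3A1 had 8.09, 8.09 and 8.07 in menthol cells, against 8.52, 8.51 and 8.36 in vehicle cells, and fell by 0.38 ± 0.07 (adjusted p = 0.00481). Neither gene overlapped between groups, and both also passed with each array left out in turn. SF3A2 fell by 0.22 ± 0.06 (adjusted p = 0.0335), a call lost on leaving out any array other than menthol replicate 3. SF3B1, the branch-site subunit often mutated in blood cancers, had 10.39, 10.45 and 10.55 in menthol cells, against 10.55, 10.42 and 10.51 in vehicle cells. The groups of SF3B1 overlapped, and its change was -0.03 ± 0.07 (adjusted p = 0.78). SF3A3, SF3B2, SF3B4, SF3B5 and SF3B6 did not pass, at -0.17 to 0.05.

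Of the 13 LSM genes 3 fell (23.1%) and 1 rose (7.69%), against 14.5% and 14.6% of all genes. The brightest quartile holds 7 of the 13 and the quartile below it 5. In these quartiles 26.9% and 20.2% of all genes fell, and 17.2% and 17.5% rose. The 3 that fell are among the 7 genes LSM2 to LSM8, whose products ring the end of U6 RNA, but LSM2 to LSM7 also serve the cytoplasmic ring of LSM1. No difference between the particles was tested. LSM2 had 8.08, 7.78 and 7.83 in menthol cells, against 8.49, 8.63 and 8.54 in vehicle cells, and fell by 0.66 ± 0.09 (adjusted p = 0.00164). LSM5 had 6.55, 6.72 and 6.63 in menthol cells, against 6.95, 6.995 and 7.02 in vehicle cells, and fell by 0.35 ± 0.07 (adjusted p = 0.00655). LSM3 fell by 0.33 ± 0.09 (adjusted p = 0.0341), a call lost on leaving out vehicle replicate 2, vehicle replicate 3, menthol replicate 1 or menthol replicate 2. LSM4, LSM6, LSM7 and LSM8 did not pass, at -0.19 to 0.06.

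LSM1 takes the place of LSM8 in the cytoplasmic ring that starts mRNA decapping and decay. It had 8.74, 8.66 and 8.75 in menthol cells, against 8.37, 8.39 and 8.51 in vehicle cells. Every menthol array lay above every vehicle array, and LSM1 rose by 0.29 ± 0.07 (adjusted p = 0.0149), though it did not pass without vehicle replicate 1 or 2. LSM8, the nuclear counterpart, had 6.98, 7.05 and 7.28 in menthol cells, against 7.16, 6.87 and 7.11 in vehicle cells, with overlap. LSM10 and LSM11, of the U7 particle that trims histone transcripts, stood at -0.05 and -0.30 and did not pass (adjusted p = 0.725 and 0.0686). LSM12, LSM14A and LSM14B, which are not spliceosome subunits, did not pass, at -0.20, -0.03 and -0.07. The dimmer probesets of LSM14B had the opposite sign, at 0.04 and 0.13, and did not pass either.

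Of the 11 PRPF genes 2 fell (18.2%) and 1 rose (9.09%), near or below the shares of all genes (14.5% lower and 14.6% higher, or 26.9% and 17.2% in the brightest quartile, where 8 of the 11 lie). PRPF8, the large U5 protein at the catalytic centre, had 10.02, 10.03 and 10.18 in menthol cells, against 10.53, 10.47 and 10.46 in vehicle cells, and fell by 0.41 ± 0.07 (adjusted p = 0.00389). PRPF40B, a U1-associated protein, had 6.52, 6.68 and 6.42 in menthol cells, against 6.87, 6.85 and 6.89 in vehicle cells, and fell by 0.33 ± 0.08 (adjusted p = 0.0165). PRPF40B did not pass without vehicle replicate 1 or 3. PRPF18, which acts at the second step of splicing, had 7.9997, 8.02 and 8.04 in menthol cells, against 7.66, 7.68 and 7.76 in vehicle cells, and rose by 0.32 ± 0.06 (adjusted p = 0.0065). The U4/U6 proteins PRPF3, PRPF4 and PRPF31 stood at 0.02, 0.01 and -0.06 and PRPF6, a bridge to U5, at -0.08, none past the threshold. PRPF19, a ubiquitin ligase of the activated spliceosome, stood at 0.08, and PRPF38A, PRPF38B and PRPF39 at -0.01, -0.14 and -0.25, none past the threshold.

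Of the 12 SRSF genes 2 fell (16.7%) and 1 rose (8.33%), against 14.5% and 14.6% of all genes. The brightest quartile, where 26.9% of all genes fell and 17.2% rose, holds 11 of the 12. SRSF11, an SR-type protein also called p54, had 10.00, 10.07 and 9.93 in menthol cells, against 10.95, 10.89 and 10.96 in vehicle cells. The groups lay far apart beside their SDs of 0.07 in menthol and 0.04 in vehicle cells, and SRSF11 fell by 0.93 ± 0.06 (adjusted p = 9.48e-05), or 1.91-fold, the largest change of the 77 genes. SRSF8, a close relative of SRSF2, had 8.85, 8.84 and 8.83 in menthol cells, against 8.40, 8.34 and 8.42 in vehicle cells, and rose by 0.45 ± 0.06 (adjusted p = 0.00122). SRSF4 fell by 0.25 ± 0.08 (adjusted p = 0.0426), a call that ended under quantile and cyclic loess normalization and without any 1 array other than menthol replicate 3.

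The other SR genes stayed within 0.13 of 0. SRSF1, the founding member that can act as an oncogene, had 11.63, 11.69 and 11.82 in menthol cells, against 11.77, 11.68 and 11.72 in vehicle cells. The groups overlapped, at -0.01 ± 0.07 (adjusted p = 0.94). SRSF2, SRSF3, SRSF5, SRSF6, SRSF7, SRSF9, SRSF10 and SRSF12 ranged from -0.13 to 0.04 and did not pass. SRSF10 has a dimmer probeset at -0.03, and whether its brighter one, at -0.13, measures the gene itself was not tested.

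**Figure D3:**
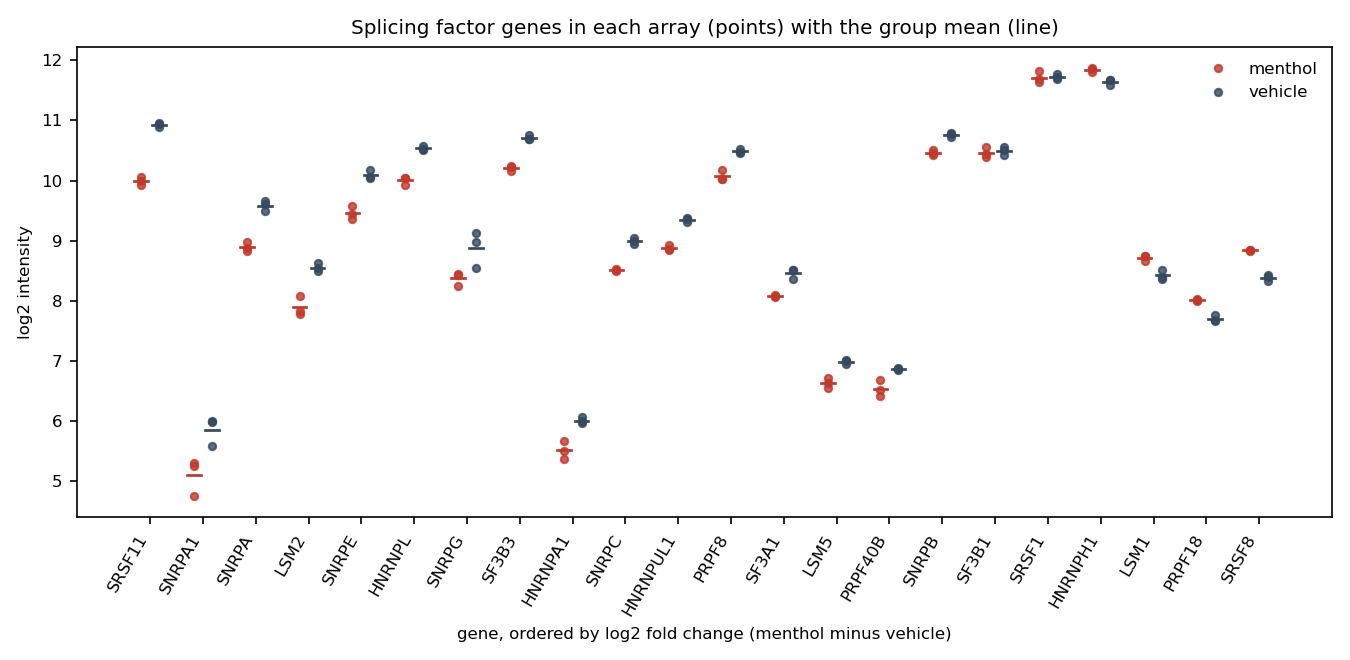
Log2 intensity of 22 splicing factor genes in each array, with menthol (red) left of vehicle (dark blue) and a line at each group mean, ordered by log2 fold change. The groups are apart in all but SF3B1 and SRSF1.

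Of the 20 hnRNP genes 10 fell (50%) and 1 rose (5%), against 14.5% and 14.6% of all genes, or 26.9% and 17.2% in the brightest quartile, where 15 of the 20 lie. The changes of those that fell ranged from -0.53 to -0.18. HNRNPL, which binds CA repeats, had 10.05, 10.05 and 9.93 in menthol cells, against 10.58, 10.52 and 10.50 in vehicle cells, and fell by 0.53 ± 0.06 (adjusted p = 0.000976). HNRNPUL1, a relative of HNRNPU, had 8.85, 8.93 and 8.87 in menthol cells, against 9.39, 9.36 and 9.31 in vehicle cells, and fell by 0.47 ± 0.06 (adjusted p = 0.00121). HNRNPA1, a splicing silencer, had 5.51, 5.68 and 5.37 in menthol cells, against 6.01, 5.96 and 6.07 in vehicle cells, and fell by 0.49 ± 0.09 (adjusted p = 0.00482). These 3 genes did not overlap between groups and also passed with each array left out in turn. HNRNPA1 has many copies in the genome, so its value is uncertain. Left out were 10 probesets that list an HNRNP symbol beside others, 4 of which list HNRNPA1. Of the 10, 4 fell and 0 rose in a limma fit over all 32321 probesets, of which 9.36% fell and 7.9% rose. The 4 that list HNRNPA1 had mean log2 levels of 11.2 to 13.1, against 5.77 for the HNRNPA1 probeset kept. Those at -0.61, -0.49 and -0.38 fell, and the brightest, at -0.32, did not pass (adjusted p = 0.0751).

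The remaining hnRNP falls were less steady. HNRNPA2B1, an RNA-sorting partner of HNRNPA1, had 9.52, 9.71 and 9.86 in menthol cells, against 10.06, 10.08 and 10.10 in vehicle cells, and fell by 0.38 ± 0.09 (adjusted p = 0.0154). It did not pass without vehicle replicate 3 (adjusted p = 0.0503). HNRNPDL, HNRNPA1L2, HNRNPH3, HNRNPA0, HNRNPF and HNRNPU fell by 0.33, 0.29, 0.29, 0.20, 0.20 and 0.18, and each lost its call without at least 1 array. Leaving out single arrays left 3 to 7 hnRNP falls: 3 without vehicle replicate 3 (against 10.1% of all genes), 5 without vehicle replicate 1 or 2, and 6 without menthol replicate 2. HNRNPA0, HNRNPF and HNRNPU also lost their calls under quantile and cyclic loess normalization.

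HNRNPH1, which binds G tracts, had 11.81, 11.85 and 11.87 in menthol cells, against 11.68, 11.67 and 11.59 in vehicle cells. It rose by 0.20 ± 0.06 (adjusted p = 0.042), without overlap, but did not pass with any 1 array left out or with array medians made equal. Its relatives HNRNPF and HNRNPH3 fell. HNRNPD, HNRNPK, HNRNPM, HNRNPAB and HNRNPR did not pass, at -0.16 to 0.05, and HNRNPLL and HNRNPCL2 stood at -0.32 and -0.33 (adjusted p = 0.0505 and 0.0752). HNRNPCL1 and the pseudogenes HNRNPA3P1 and SNRPD2P2 did not pass, at -0.03, -0.08 and 0.21.

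Other genes of the pathway were taken from 5 lists, of which 107 genes outside the 77 were measured. Of these 39 fell (36.4%) and 7 rose (6.54%), with a median of -0.13, against the same 14.5% and 14.6% of all genes. In the brightest quartile, where 81 of the 107 lie, 26.9% of all genes fell and 17.2% rose, with a median of -0.05. Under cyclic loess normalization 32 of the 107 fell and 13 rose, against 14.3% and 14.1% of all genes in that fit. Under quantile normalization 33 fell and 12 rose, against 14.5% and 13.9%. The share that rose thus lay closer to that of all genes in these fits. Without vehicle replicate 1, 25 of the 107 fell and 4 rose, against 10.5% and 10.6% of all genes in that fit.

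Of 40 other snRNP and catalytic genes 13 fell (32.5%) and 2 rose (5%), against 14.5% and 14.6% of all genes. The shares of all genes were 26.9% and 17.2% in the brightest quartile, where 32 of the 40 lie. Without vehicle replicate 1, 8 of the 40 fell, against 10.5% of all genes in that fit. USP39, a tri-snRNP assembly factor, fell by 0.54 ± 0.06, PPIH, a cyclophilin of the U4/U6 particle, by 0.48 ± 0.07 and SNRNP48, a protein of the minor spliceosome, by 0.44 ± 0.09. In this list 5 genes rose under quantile normalization, 6 under cyclic loess and 6 with a trended robust prior. On leaving out vehicle replicate 1, vehicle replicate 2 or menthol replicate 2, 1 rose. In those fits 10.6% to 16.1% of all genes rose. Of 16 SR-related proteins and SR kinases 9 fell (56.25%) and 1 rose (6.25%), against 14.5% and 14.6% of all genes. In the brightest quartile, where 12 of the 16 lie, 26.9% of all genes fell and 17.2% rose. Without vehicle replicate 2, 6 of the 16 fell, against 10.7% of all genes in that fit. The kinase CLK4, which phosphorylates SR proteins in the nucleus, had 6.86, 6.79 and 7.16 in menthol cells, against 7.73, 7.57 and 7.58 in vehicle cells, and fell by 0.69 ± 0.11 (adjusted p = 0.00258). SON and SRRM2, scaffolds of nuclear speckles, both fell by 0.49, with SEs of 0.08 and 0.07. SRPK2, a kinase that phosphorylates SR proteins largely in the cytoplasm, was the gene of this list that rose, by 0.44 ± 0.07 (adjusted p = 0.00272).

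Of 14 snRNP assembly genes 4 fell (28.6%) and 1 rose (7.14%), against 14.5% and 14.6% of all genes. By intensity, 6 lie in the brightest quartile, where 26.9% of all genes fell and 17.2% rose. Another 7 lie in the quartile below it, where 20.2% fell and 17.5% rose. In this list 0 rose without vehicle replicate 1, and 2 rose without menthol replicate 1 or under quantile or cyclic loess normalization. CLNS1A, which delivers Sm proteins for ring assembly, had 8.86, 8.90 and 8.86 in menthol cells, against 9.28, 9.37 and 9.39 in vehicle cells, and fell by 0.47 ± 0.06 (adjusted p = 0.0012). GEMIN2 and GEMIN4, of the SMN complex that loads the ring, fell by 0.44 ± 0.07 and 0.34 ± 0.06. Of 5 exon junction complex genes, 4 of them in the brightest quartile, 2 fell (40%) and 1 rose (20%), against 14.5% and 14.6% of all genes. CASC3 and MAGOH fell by 0.27 ± 0.06 and 0.24 ± 0.07 and RBM8A, the partner of MAGOH, rose by 0.21 ± 0.06. MAGOH and RBM8A were near the threshold (adjusted p = 0.0452 and 0.036), and 1 gene of this list fell without any 1 array other than menthol replicate 3. In this list 1 gene rose without menthol replicate 2 and 0 without any 1 of the other arrays.

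Of 32 other splicing regulators 11 fell (34.4%) and 2 rose (6.25%), against 14.5% and 14.6% of all genes. The shares of all genes were 26.9% and 17.2% in the brightest quartile, where 27 of the 32 lie. Falls numbered 5 without vehicle replicate 1 or 3, 6 without vehicle replicate 2, 7 without menthol replicate 2 and 7 under cyclic loess normalization. Of all genes, 10.5%, 10.1%, 10.7%, 11.2% and 14.3% fell in those fits, in that order. The polypyrimidine tract binding protein PTBP1 had 10.74, 10.65 and 10.78 in menthol cells, against 11.25, 11.16 and 11.23 in vehicle cells, and fell by 0.49 ± 0.06 (adjusted p = 0.00135). RBM10 fell by 0.40 ± 0.06. MBNL3, of the muscleblind family, had 6.89, 6.73 and 6.88 in menthol cells, against 6.08, 6.06 and 6.13 in vehicle cells, and rose by 0.75 ± 0.07 (adjusted p = 0.000284), the largest rise among all splicing genes listed here.

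**Figure D4:**
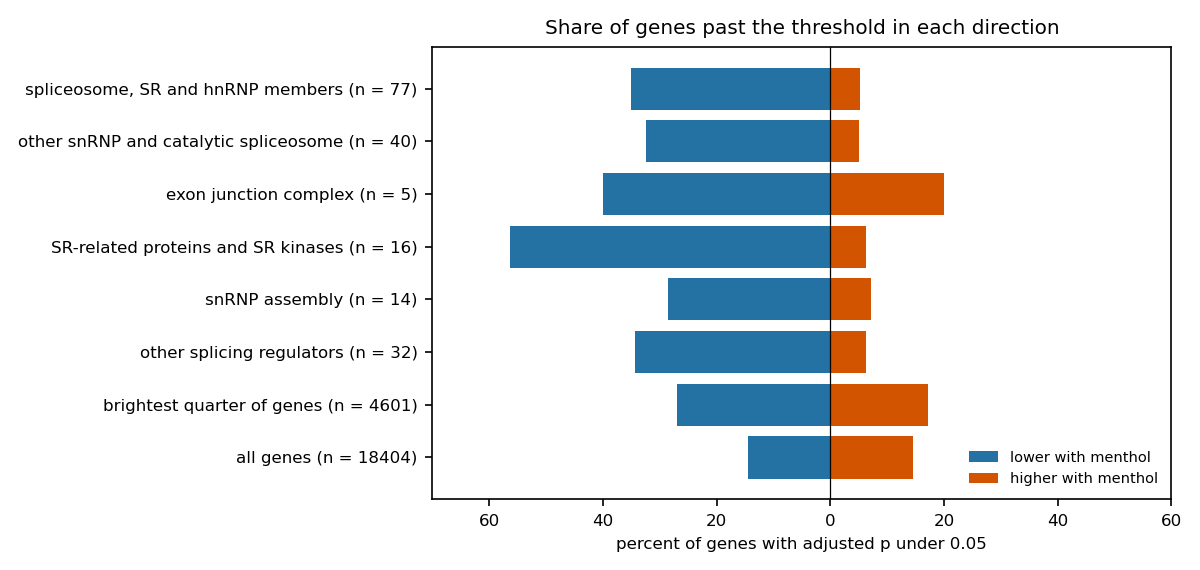
Percent of genes past an adjusted p of 0.05 in limma, lower with menthol to the left and higher to the right, for the 77 members, 5 lists of other splicing genes, the brightest 4601 genes and all genes. The members, all 5 lists and the brightest 4601 genes (26.9% lower and 17.2% higher) have more falls than rises. All genes are balanced at 14.5% and 14.6%.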

How the data were processed

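The authors deposited 1 table of intensity values for 32321 probesets on 6 arrays, made with RMA per the submitters' processing notes. No software version is stated. The intensities ranged from 1.57 to 14835, a linear scale, so log2 was taken. Array medians lay between 47.4 and 49.1. Of the probesets, 19158 had 1 gene symbol in the platform annotation, and for each of 18404 genes the probeset with the highest mean was kept. The Entrez identifiers of all 77 members were found in RefSeq for GRCh38.p14 under the same symbols. RMA adjusts all arrays to 1 distribution, so a shift in total RNA would not be seen.

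The comparison of menthol with vehicle used lmFit and eBayes of limma 3.58.1 under R 4.3.3 (two-sided, Benjamini-Hochberg over 18404 genes, threshold 0.05). With 3 arrays a group, the smallest p of an exact permutation test is 0.1. The fit was tested on simulated data. Members and lists were chosen with earlier results of these data known. Arrays are given in full for the 12 largest changes past the threshold, the 2 largest of each family with fewer than 2 among those, SRSF1, HNRNPA1, SNRPB and SF3B1. Other lists name up to 3 genes each. Genes of a count of 5 or fewer, and other genes given in full, were chosen after their values were seen. Figures used Python 3.11.15 and matplotlib 3.10.9.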

Additional observations from a re-analysis of the deposited data

How the results depend on the processing

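The members that fell numbered 13 to 35 over the alternatives that kept all arrays, against 27. The highest, 35 of 77 (45.5%), came with a trended robust prior, where 17.6% of all genes fell, and 33 of 69 (47.8%) fell among genes above the median tested alone, where 31.0% of all fell. The lowest, 13, came with a threshold of 0.01, at which 2 members rose and 2841 genes passed over the whole table in place of 5353. Leaving out single arrays, 14 to 23 members fell (18.2% to 29.9%, against 10.1% to 13.4% of all genes), 2 to 3 rose (2.60% to 3.90%, against 10.6% to 13.1%), and 3839 to 4828 genes passed. The median change of the members stayed between -0.16 and -0.10 under every alternative run. SRSF1 changed sign without passing the threshold, at 0.035 under quantile and 0.064 under cyclic loess normalization and between -0.060 and 0.031 with each array left out. SF3B1 did likewise, at 0.031 under both normalizations and between -0.075 and 0.0064 with each array left out. The cause was not tested. With the normalizations, 22 of the 27 falls and 3 of the 4 rises passed under all of quantile, cyclic loess and equal medians. The like share over all genes is not given here. Whether the replicate numbers pair the arrays was not settled. Correlations of same-numbered arrays' deviations ran from -0.01 to 0.09, and those of other pairs from -0.07 to 0.07. Of 6 arrays, 2 correlated best with their own number. With 3 arrays a group this check cannot exclude pairing. With the replicate number as a block, 24 members fell, 21 of them among the 27, 3 rose, and 4868 genes passed. The members' whole-symbol match left 61 genes, of which 20 fell and 3 rose, against 14.5% and 14.6% of all genes.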

Other observations

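Of 5 probesets that list SNRPN beside other symbols, left out above, 2 fell and 1 rose in a limma fit over all 32321 probesets, of which 9.36% fell and 7.9% rose. The changes ran from -0.51 to 0.43 on the log2 scale. The probeset that rose, and that at 0.43, also list SNORD115 genes and had mean log2 levels of 1.80 and 1.76, near the lowest on the arrays. Of those that fell, the one at -0.51 also lists SNORD116 genes and the one at -0.33 lists SNURF. The minor spliceosome, which removes a rare class of introns, was measured through SNRNP48, SNRNP35 and SNRNP25, at -0.44, 0.21 and -0.06, of which only SNRNP48 passed (adjusted p = 0.0106, with SNRNP35 at 0.0519).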
